A study of Mus musculus with 2 samples.

Results

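The genes described here are Xpo7, Lmna, Lmnb1, Lmnb2, Hdac2, Rac1 and Rac2, a set of 7 genes that act on the nucleus of erythroid cells before and during its loss. They were taken by symbol from the 27998 genes of the deposited count tables, and all 7 were found in both libraries. Their UMIs (unique molecular identifiers, each standing for 1 captured RNA molecule) were summed over the cells of each annotated type, separately in each library. The cells came from 1 wild-type C57BL/6 (C57BL/6J in the study's methods) mouse liver at E12.5 (the embryonic day), sorted to remove debris, dead cells and doublets, and were run as 2 technical replicate libraries on the 10x Genomics Chromium. The labels name no engineered allele and no treatment. Because both libraries sampled 1 liver, no test between cell types could be made, no p-value is given, and every interval (95%) covers counting error only. The authors' annotation held 10537 cells of 9 types: 421 hematopoietic stem and progenitor cells (HSPC), 1750 erythroid-committed progenitors (Ery, subclusters Ery 1 and Ery 2), 7432 erythroblasts (Eryb, subclusters Ery 3 to Ery 6), 288 primitive erythroblasts derived from the yolk sac (EryP), 135 megakaryocytes (Mk), 287 granulocytes (G), 114 monocytes and Kupffer cells (Mo/KC), 46 endothelial cells (EC) and 64 hepatoblasts (Hepa). EryP is the smallest erythroid group, with 170 cells in library 1 and 118 in library 2.

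A mammalian erythroblast condenses its chromatin, stops dividing and then pushes its nucleus out, a step known as enucleation. Definitive erythroblasts do so in the fetal liver, whereas primitive erythroid cells enter the circulation with their nuclei and lose them later. Xpo7 encodes exportin 7, a nuclear export receptor of the importin-beta family that is known to be needed for chromatin condensation and enucleation of mouse erythroblasts. Lmna encodes the A-type lamins, and Lmnb1 and Lmnb2 encode the B-type lamins, the filaments that line the inner nuclear membrane and in which transient openings form during terminal erythropoiesis. Hdac2 encodes a class I histone deacetylase that is required for chromatin condensation and enucleation of cultured fetal erythroblasts. Rac1 and Rac2 encode small GTPases that organize actin at the site of enucleation, and Rac2 is otherwise a gene of blood cells.

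According to the GRCm38 annotation, Xpo7 (ENSMUSG00000022100) lies on the minus strand at chr14:70654246-70766628, Lmna (ENSMUSG00000028063) on the minus strand at chr3:88480147-88509956 and Lmnb2 (ENSMUSG00000062075) on the minus strand at chr10:80901203-80918245. Hdac2 (ENSMUSG00000019777) lies on the plus strand at chr10:36974544-37001889, Rac1 (ENSMUSG00000001847) on the minus strand at chr5:143503634-143528036 and Rac2 (ENSMUSG00000033220) on the minus strand at chr15:78559167-78572783. The annotated span of Xpo7 overlaps Npm2 on the same strand, and those of Xpo7 and Rac1 overlap Dok2 and Daglb on the other. Whether the overlaps affected the counts of these genes was not tested. Of the 7 genes, only 3 were found in the RefSeq table of start-site windows (GRCm38.p6), namely Lmna, Hdac2 and Lmnb2. A window of each is printed (250 bases before to 50 after the start site, 5′ to 3′ on the strand of the gene). These 3 genes were printed because the table held them, and they were not chosen for their courses in erythroid cells. The Lmna window (chr3:88503303-88503602, minus strand) starts inside the gene, with 84 of its 300 bases in annotated exons, while those of Hdac2 (chr10:36974294-36974593, plus strand) and Lmnb2 (chr10:80918196-80918495, minus strand) start at the annotated 5′ end.
Lmna: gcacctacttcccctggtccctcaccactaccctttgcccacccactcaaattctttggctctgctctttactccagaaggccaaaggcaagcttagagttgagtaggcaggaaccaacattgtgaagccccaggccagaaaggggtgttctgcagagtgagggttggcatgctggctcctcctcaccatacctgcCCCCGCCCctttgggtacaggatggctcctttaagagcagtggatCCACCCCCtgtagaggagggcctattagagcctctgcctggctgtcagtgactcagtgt
Hdac2: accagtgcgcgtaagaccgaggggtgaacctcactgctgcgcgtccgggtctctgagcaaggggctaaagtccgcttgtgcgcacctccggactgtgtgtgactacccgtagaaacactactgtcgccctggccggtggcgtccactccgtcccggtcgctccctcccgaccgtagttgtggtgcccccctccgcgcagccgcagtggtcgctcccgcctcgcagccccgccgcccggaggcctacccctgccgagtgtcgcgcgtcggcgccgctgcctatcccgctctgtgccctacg
Lmnb2: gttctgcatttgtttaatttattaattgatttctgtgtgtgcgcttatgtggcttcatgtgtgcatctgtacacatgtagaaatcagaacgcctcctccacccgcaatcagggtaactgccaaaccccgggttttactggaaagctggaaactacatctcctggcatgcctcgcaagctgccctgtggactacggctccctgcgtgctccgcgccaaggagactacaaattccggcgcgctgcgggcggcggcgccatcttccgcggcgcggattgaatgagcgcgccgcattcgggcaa
The capitals mark CCNCNCCC, the letters bound by KLF factors, searched on both strands and with any base at N. They occurred at 2 places in the Lmna window and at none in the other two, and in 49.5% of all 32851 windows of the same table. The table holds a second window for Lmna (chr3:88493263-88493562, minus strand) and one for Lmnb2 (chr10:80906363-80906662, minus strand), and these letters were in neither. The letters of the GATA motif, AGATAA or its forms with T as the first or G as the last base, searched in the same way, were in none of the 3 printed windows and in 29.8% of all windows. A match is a description of these letters only.

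Library 1 had 51969226 UMIs and library 2 had 62738015 in the kept cells, and 31 cell barcodes occurred in both libraries. Globin genes took very unequal parts of these UMIs: 2.15% in Ery, 36.7% in Eryb and 76.7% in EryP in library 1, and 4.82%, 59.2% and 82.5% in library 2. Levels are therefore given on 2 scales, as counts per 1000000 UMIs of all genes (CPM) and as counts per 1000000 UMIs of genes other than the 8 globin genes (globin-free CPM), and each direction is stated with its scale. EryP cells carried their defining embryonic globins Hba-x, Hbb-bh1 and Hbb-y, which summed to 615567 and 482126 CPM in libraries 1 and 2 against 6218 and 4175 CPM in Eryb. The adult markers Hbb-bs, Hbb-bt, Hba-a1, Hba-a2 and Alas2 summed to 152580 and 344219 CPM in EryP, and markers of EC were at 1.04 and 0 CPM there. The RNA outside cells was read from barcodes with 1 to 50 UMIs. In erythroid cells, the largest share of UMIs from this free RNA that markers of G, Mo/KC, Mk, EC and Hepa allowed was 6.06% and 6.93% in Ery, 7.35% and 4.79% in Ery 6, and 5.21% and 3.91% in EryP.

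Among erythroid cells, most Xpo7 was found in the last erythroblast subcluster, Ery 6, with a lower level in EryP. Across the 9 cell types its level in Eryb was 188 CPM (library 1) and 112 CPM (library 2), from 4560 and 3982 UMIs, and in EryP 98.1 and 74.6 CPM, from 94 and 72 UMIs. HSPC followed with 38.6 and 31.7 CPM, and Eryb and EryP lay above HSPC in both libraries. Mk, G, EC, Hepa and Mo/KC lay between 16.2 and 36.4 CPM, and each overlapped its neighbours in this order, as Mk did HSPC. Ery was lowest, at 11.7 and 10.1 CPM. Of the 223 and 181 Xpo7 UMIs in Ery, free RNA at its largest share would give 115 and 83.3, a large part of the count.

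**Figure D1:**
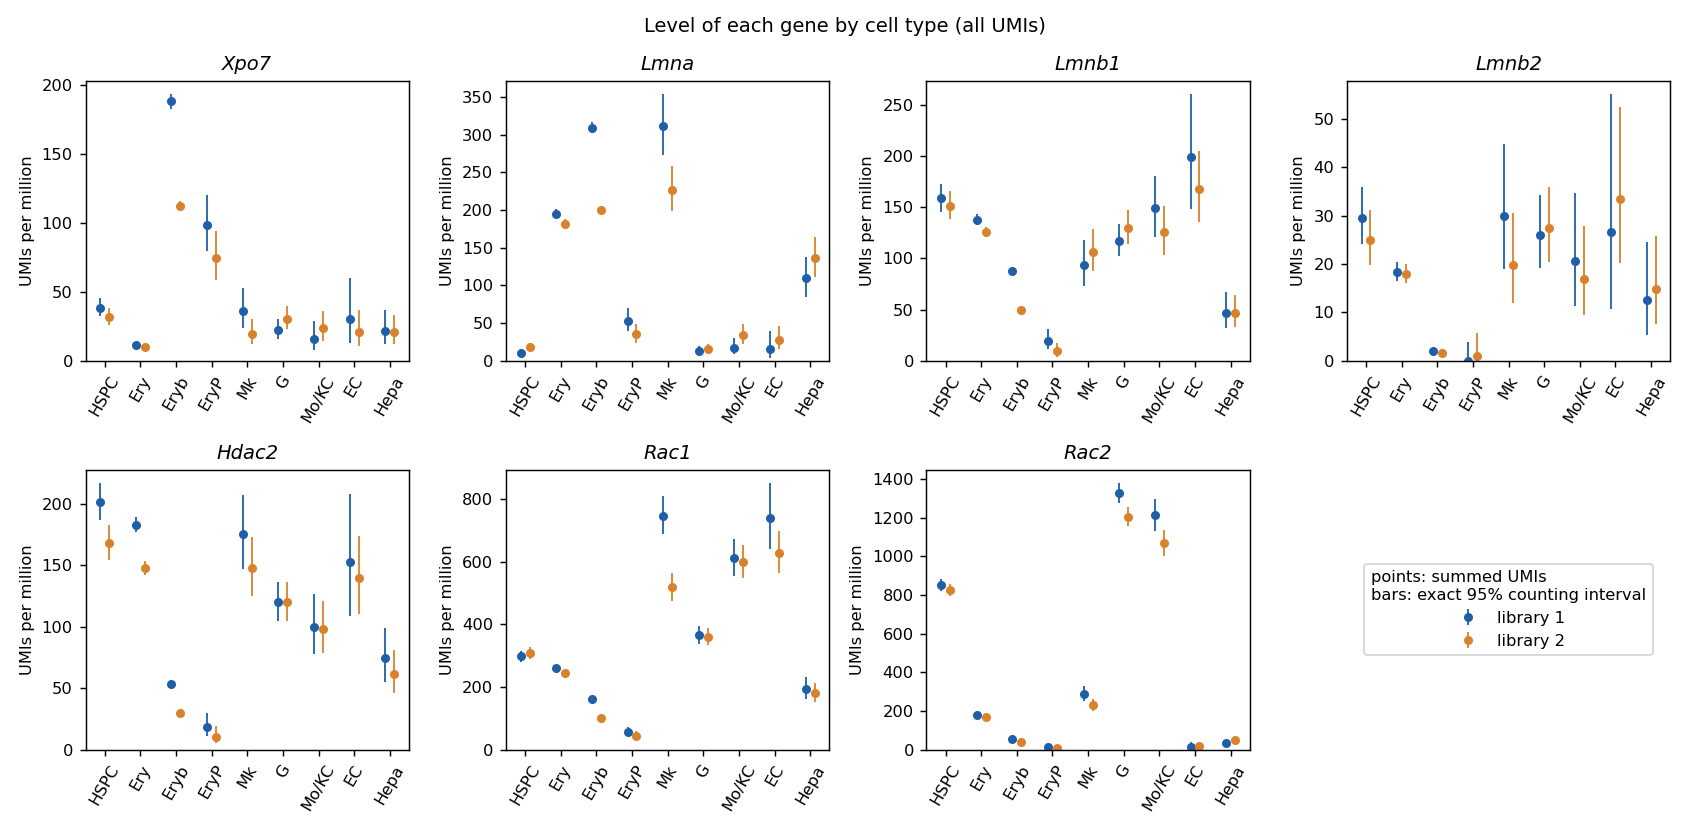
Level of each of the 7 genes (CPM of all UMIs, linear axes from 0) in the 9 cell types, with 1 point for each library and bars for the exact 95% Poisson interval. Xpo7 is highest in Eryb, Lmna in Mk and Eryb, and Rac2 in G, Mo/KC and HSPC. Each of the 7 genes is lower in EryP than in Eryb on this scale, but Lmnb2 has only 0 and 1 UMIs in EryP and its intervals overlap.

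Along the subclusters, Xpo7 stayed low from Ery 1 to Ery 3, with 14.9, 8.27 and 18.1 CPM in the first library beside 11.4, 8.62 and 11.4 CPM in the second. It reached 39.1 and 23.2 CPM in Ery 4 and 59.9 and 24.8 CPM in Ery 5. In Ery 6 the level of library 1 was 691 CPM (95% interval 670 to 713), and library 2 gave 351 CPM (339 to 363). The step from Ery 5 to Ery 6 was thus 11.5-fold (9.92 to 13.5) in library 1 and 14.2-fold (12.0 to 16.9) in library 2. On the globin-free scale the libraries nearly coincided in Ery 6, at 1648 and 1631, and the step was 13.4-fold and 17.6-fold. In that step 3.40% of 3116 genes were at least 2-fold higher in both libraries by CPM and 5.13% without globin genes, and Xpo7 was the only such member on either scale. In molecules per cell, Xpo7 went from 0.352 and 0.246 UMIs in Ery 5 to 3.23 and 2.96 UMIs in Ery 6, so the step was present on each of these scales. From Ery 3 to Ery 6 the CPM differed 38.3-fold (32.3 to 45.6) and 30.9-fold (25.1 to 38.4), more than for 99.9% of the 4368 genes with a mean of at least 10 CPM in that comparison. Of these genes, 3.27% were at least 2-fold higher in Ery 6 in both libraries, or 14.5% on the globin-free scale.

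**Figure D2:**
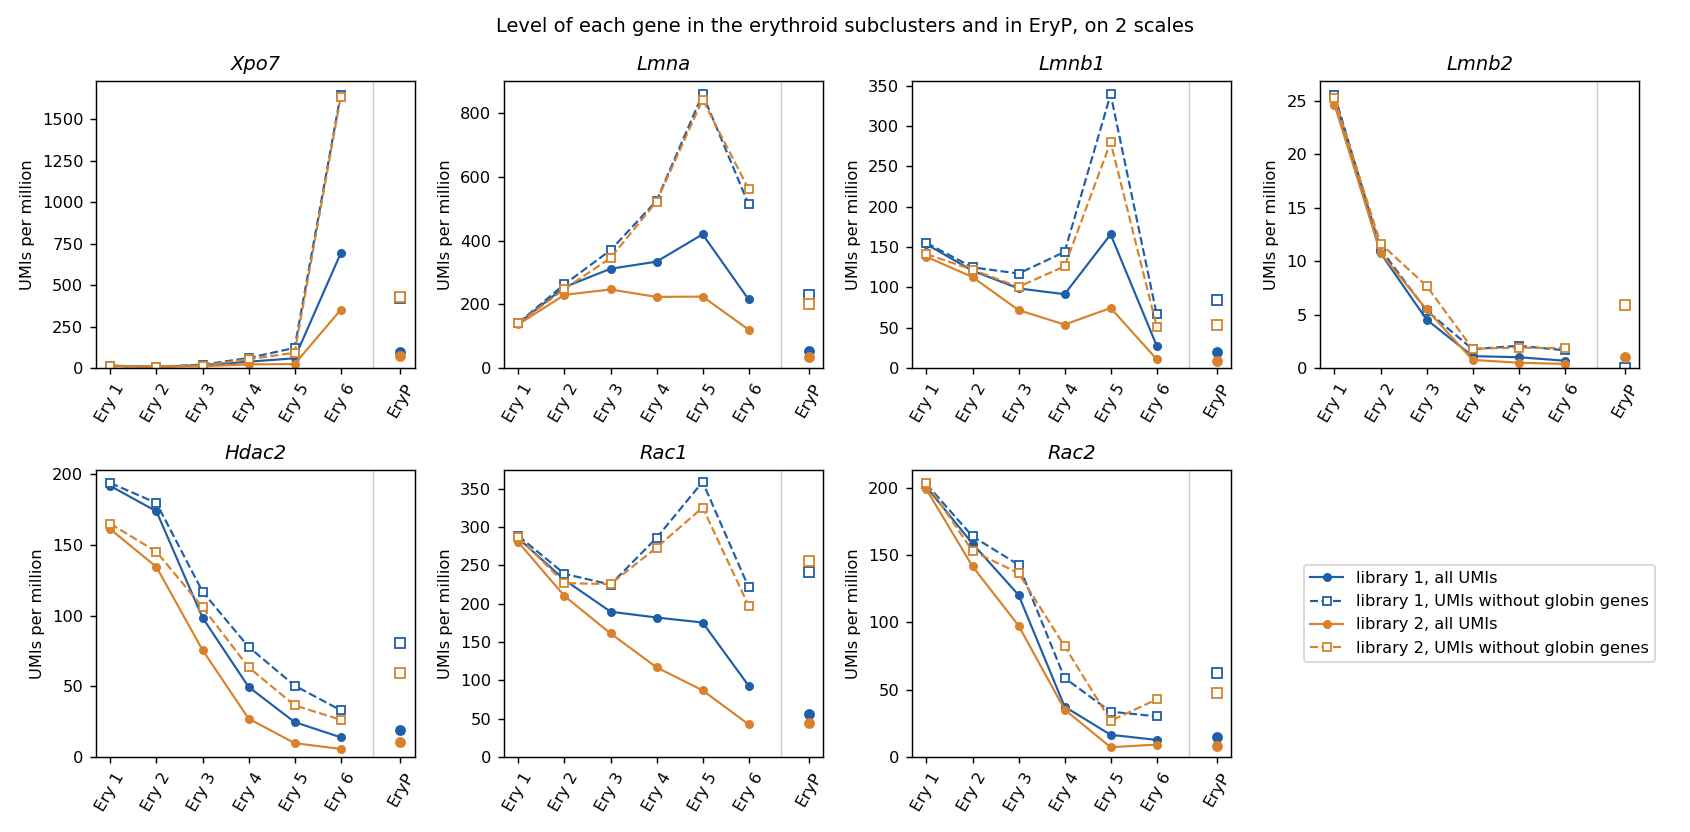
Level of each gene in subclusters Ery 1 to Ery 6 and in EryP (CPM, linear axes from 0), with filled circles for all UMIs and open squares for UMIs without globin genes, in 1 color for each library. Xpo7 is highest in Ery 6 on both scales, Lmna and Lmnb1 are highest in Ery 5 on the globin-free scale, and Lmnb2, Hdac2 and Rac2 are far lower in Ery 6 than in Ery 1 on both.

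Ery 6 was itself uneven in Xpo7. In library 1, 300 of its 1218 cells held no Xpo7 UMI and 556 held 3 or more, with a median of 2 and a maximum of 23. In library 2, 332 of 1176 cells held none and 530 held 3 or more, again with a median of 2 and with a maximum of 24. When Ery 6 was divided into 4 parts of equal cell number by the share of globin UMIs, globin-free Xpo7 went from 456 through 1304 and 2470 to 3292 in library 1. In library 2 the same parts held 405, 1429, 2469 and 3377. On this scale the order of the parts was the same in both libraries and neighbouring intervals did not overlap. The divisor of the globin-free scale itself falls as the globin share rises. When Ery and Eryb cells were ranked by adult globin share into 20 groups, at least 96.8% of cells in groups 19 and 20 were Ery 6. From group 19 to group 20, Xpo7 went from 1017 to 1018 CPM and from 494 to 469 CPM. The globin-free values went from 2683 to 3330 and from 2766.5 to 3429. In Ery 4, by contrast, few cells held an Xpo7 UMI: 166 of 1357 cells in library 1 and 118 of 1202 in library 2. In these libraries 25 and 27 Ery 4 cells held 3 or more. Those with 3 or more had a median adult globin share of 42.4% and 70.8%, against 34.9% and 56.9% in Ery 4 cells without an Xpo7 UMI. Their medians of all UMIs were 9490 and 9982, against 5660 and 8973 in the cells without. The part of this depth difference in the counts was not tested.

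**Figure D3:**
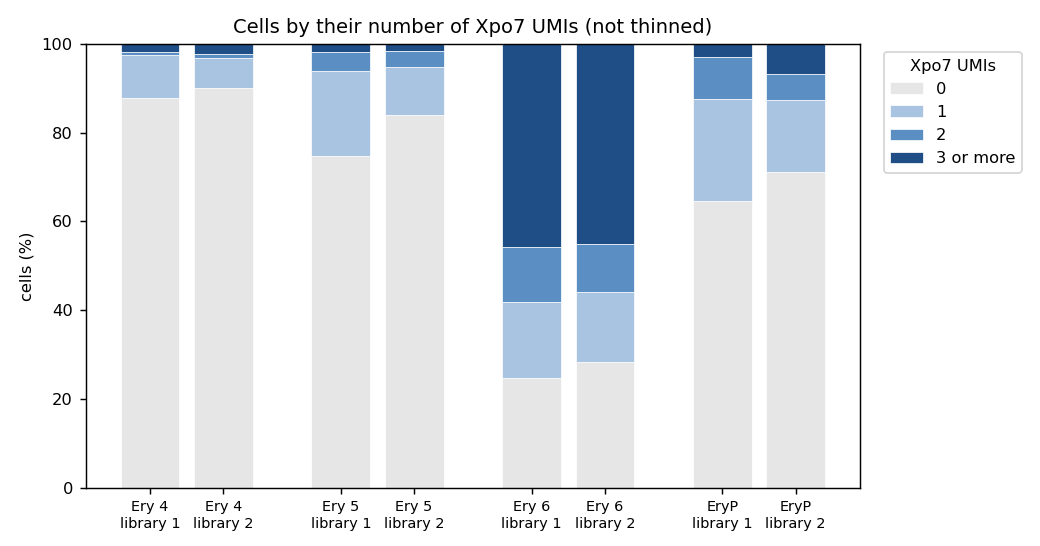
Share of cells (%, bars from 0 to 100) with 0, 1, 2 or at least 3 Xpo7 UMIs in Ery 4, Ery 5, Ery 6 and EryP, with 1 bar for each library and without thinning of the cells. In Ery 6, 556 of 1218 and 530 of 1176 cells held 3 or more, against 5 of 170 and 8 of 118 cells in EryP.

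EryP held less Xpo7 than Ery 6 on every scale used. In EryP, 110 of 170 cells in library 1 and 84 of 118 in library 2 had no Xpo7 UMI. The EryP level was 0.142 times that of Ery 6 (0.114 to 0.174) in library 1 and 0.213 times (0.166 to 0.268) in library 2, and 0.255 and 0.262 times on the globin-free scale, where EryP stood at 421 and 427. Xpo7 and Lmna were the members at least 2-fold lower in EryP than in Ery 6 in both libraries, on both scales, beside 21.3% of 2491 genes by CPM and 11.6% without globin genes. No member was higher by CPM, where 3.17% of genes were.

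Against earlier erythroblasts the direction of Xpo7 was the other way. EryP held 5.43 and 6.56 times the Xpo7 CPM of Ery 3, where 1.82% of genes were at least 2-fold higher and 83.0% lower, and Xpo7 was the member that was higher while the other 5 with enough counts were lower. Without globin genes its ratio was 19.6 and 26.8, beside 10.2% of genes higher and 21.0% lower, and Rac2 alone was lower. Against Ery 4 the Xpo7 ratio was 2.51 and 3.21 by CPM, with 1.90% of genes higher, 69.0% lower and the same 5 members lower. Without globin genes it was 6.85 and 7.86, with 7.93% of genes higher and 16.7% lower, and Lmna alone was lower. Against Ery 5 Xpo7 was 1.64 and 3.01 times by CPM and so did not pass 2-fold in library 1, where Lmna and Lmnb1 were lower, beside 2.83% of genes higher and 42.9% lower. Without globin genes the ratio was 3.43 and 4.60, with 10.0% of genes higher and 20.2% lower, and Lmna and Lmnb1 were again lower. These comparisons share the EryP cells.

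A few EryP cells carried much of this signal. In library 2, 11 of 118 EryP cells held no more embryonic than adult globin UMIs. They had a median of 14745 UMIs against 7013 in the remaining 107 cells, and they contributed 34 of the 72 Xpo7 UMIs. In library 1 only 3 of 170 cells were of this kind, with 12 of the 94 UMIs. Without them, the Xpo7 level of EryP was 87.8 CPM (69.8 to 109) for library 1, 47.9 CPM (33.9 to 65.8) for library 2, or 383 and 289 on the globin-free scale. With these cells left out, 6 of 6 members were at least 2-fold lower in EryP than in Eryb by CPM, Xpo7 included, and 1 without globin genes. By the same rule 69.9% of 3453 genes were lower by CPM and 18.4% without globin genes. What these cells are was not tested. Free RNA at its largest share would supply 4.95 and 2.52 of the Xpo7 UMIs in EryP, a small part of the count.

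The lamin genes followed courses that differed from each other. Lmna was near the level of free RNA in stem and progenitor cells and was clearly present in erythroid cells, Mk and Hepa. It stood at 312 and 227 CPM in Mk, 309 and 200 CPM in Eryb, 195 and 182 CPM in Ery, and 109 and 136 CPM in Hepa. By CPM, Mk and Eryb could not be separated, since their libraries overlapped, whereas without globin genes Eryb stood at 489 and 491, above Mk at 317 and 240. EryP held 53.2 and 35.2 CPM (51 and 34 UMIs), and Mo/KC, EC, HSPC and G lay between 11.02 and 33.9 CPM. In HSPC the 38 UMIs of library 1 were fewer than the 59.1 that free RNA at its largest share would give, and the 58 UMIs of library 2 compared with 32.4, so Lmna was not detectable above background in HSPC in library 1. The same held for G, with 26 and 30 UMIs against 34.4 and 30.5.

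Within the erythroid lineage Lmna rose from 141 and 137 CPM in Ery 1 to 254 and 230 in Ery 2 and 312 and 247 in Ery 3. Its later course depended on the scale. By CPM, library 1 was highest in Ery 5 at 420 and library 2 was highest in Ery 3, with 224 in Ery 5. On the globin-free scale both libraries rose through Ery 4 to 859 and 842 in Ery 5 and fell to 513 and 561 in Ery 6, a ratio of Ery 6 to Ery 5 of 0.598 (0.552 to 0.648) and 0.667 (0.616 to 0.722). Inside Ery 6 the fall went on: from the part with least to the part with most globin, globin-free Lmna went from 652 to 283 in library 1 and from 739.5 to 254 in library 2, while Xpo7 rose over the same parts.

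Lmnb1 was counted in all cell types and, within the erythroid cells, was lowest by CPM in Ery 6 and EryP. It was highest in EC, at 198 and 168 CPM, and in HSPC, at 159 and 151 CPM, and next in Mo/KC, Ery and G, whose intervals overlapped. Eryb held 87.9 and 49.6 CPM, and EryP was lowest with 19.8 and 9.32 CPM (19 and 9 UMIs). Between Ery 5 and Ery 6 the CPM of Lmnb1 dropped from 166 to 27.9 in library 1, and library 2 showed a drop from 74.6 to 11.1, to 0.169 times (0.140 to 0.202) and 0.149 times (0.120 to 0.184) its level. On the globin-free scale the levels went from 339 to 66.6 and from 280 to 51.6, and the share of 3116 genes at least 2-fold lower in that step was 23.9% by CPM and 17.1% without globin genes. The 12 proliferation genes listed for comparison, among them Mki67 and Top2a, behaved alike in that step, 12 of 12 being at least 2-fold lower by CPM and 11 of 12 on the globin-free scale. Their summed globin-free level was 12136 and 11607 in Ery 5 and 3006 and 2871 in Ery 6.

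Lmnb2 had few UMIs in every type, and among erythroid cells it was mainly found in the early ones. EC, HSPC, G and Mk held between 19.7 and 33.5 CPM and overlapped. In the erythroid series it went from 25.3 and 24.7 CPM in Ery 1 to 10.8 CPM in both libraries in Ery 2 and 4.55 and 5.50 CPM in Ery 3. In Ery 4 to Ery 6 it was at 1.13 CPM or less, with 4 UMIs in each library in Ery 6, where free RNA at its largest share would give 5.93 and 4.11. EryP had Lmnb2 UMIs in 0 of 170 cells of library 1, a count that leaves room for up to 1.76% of cells with a UMI at this depth and sets no limit on cells with the transcript, and 1 UMI in library 2. Lmnb2 was therefore the member that missed the minimum of 10 CPM in the comparison of EryP with Eryb. Of the lamin UMIs counted together, the part from Lmna rose from 5.53% and 9.52% in HSPC to 44.0% and 45.8% in Ery 1 and 88.3% and 91.3% in Ery 6, and was 72.9% and 77.3% in EryP.

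**Figure D4:**
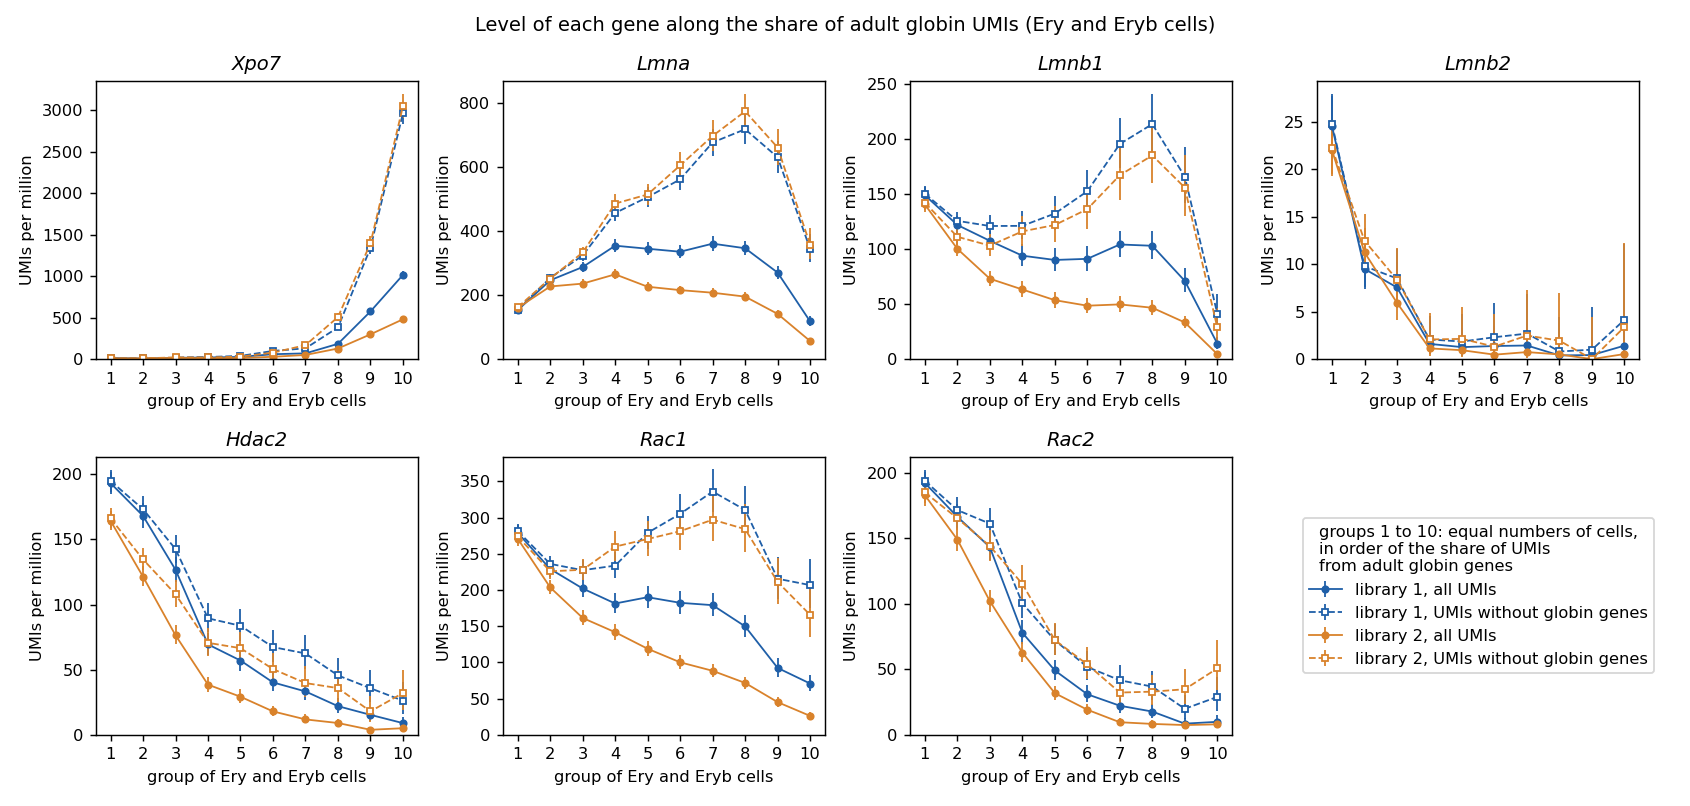
Level of each gene (CPM, linear axes from 0) in 10 groups of equal cell number of Ery and Eryb cells, ordered within each library by the share of UMIs from adult globin genes, with bars for the exact 95% Poisson interval. Filled circles use all UMIs and open squares UMIs without globin genes, and on the open squares Lmna and Lmnb1 peak in group 8 while Xpo7 is highest in group 10.

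The courses were also read from 10 groups of Ery and Eryb cells ranked by their share of adult globin UMIs, not by subcluster. At the upper end these were largely the same cells. Ery 6 made up 78.5% and 72.9% of group 9 and 97.9% and 97.5% of group 10. The Xpo7 level of group 10 is thus mostly that of Ery 6 cells again. Globin-free Xpo7 went from 13.6 and 8.87 in the first group to 382 and 507 in group 8, 1341 and 1397 in group 9 and 2967 and 3052 in group 10. Globin-free Lmna was highest in group 8, at 719 and 775, and was 344 and 358 in group 10. Lmnb1 was likewise highest in group 8, at 214 and 185, and was 41.3 and 28.7 in group 10. Both lamin genes were thus past their highest level in the groups where Xpo7 was highest, in both libraries. By CPM the same groups showed Lmna highest in group 7 in library 1 and in group 4 in library 2, and Lmnb1 highest in the first group in both. The step by CPM was steep for Hdac2 as well, from 193 and 164 in the first group to 8.96 and 5.05 in the last. By CPM, 6 of the 7 genes were lower in group 10 than in group 1 in both libraries, all but Xpo7, and so were 87.9% of the 5177 genes with a mean of at least 10 CPM. On the globin-free scale these were 5, since Lmna was then higher in group 10, beside 74.7% of genes.

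Hdac2 fell throughout the erythroid series. It was highest in HSPC at 202 and 168 CPM and in Ery at 183 and 148 CPM, with Mk and EC next, each overlapping Ery. From Ery 1 to Ery 6 its level in library 1 was 192, 174, 98.5, 49.5, 24.6 and 13.9 CPM. Library 2 gave 161, 134, 75.6, 27.1, 9.73 and 5.65 CPM for the same subclusters. Each step was downward in both libraries, and the order held on the globin-free scale, from 194 and 165 in Ery 1 to 33.1 and 26.3 in Ery 6. In Ery 6 free RNA at its largest share would give 51.5 of the 79 UMIs in library 1 and 39.4 of the 56 in library 2, so most of this count could be background. EryP held 18.8 and 10.4 CPM (18 and 10 UMIs), and on the globin-free scale it held 2.44 times the Hdac2 of Ery 6 (1.37 to 4.10) in library 1 and 2.26 times (1.03 to 4.46) in library 2. In that comparison, 9.47% of genes were at least 2-fold higher in EryP without globin genes. By CPM the ratio was 1.35 (0.763 to 2.28) and 1.83 (0.833 to 3.62), and neither interval excluded equal levels. In EryP free RNA at its largest share would give 6.14 of the 18 Hdac2 UMIs and 3.14 of the 10.

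Rac1 was present in all cell types and Rac2 mainly in white blood cells and progenitors. Rac1 was highest in EC, Mk and Mo/KC, between 518 and 747 CPM, which overlapped among themselves. It stood at 365 and 361 CPM in G, 297 and 307 in HSPC, 259 and 246 in Ery, 163 and 101 in Eryb and 56.4 and 44.5 in EryP. The erythroid fall of Rac1 depended on the scale. Per cell it went from 7.50 and 7.24 UMIs in Ery 1 to 0.433 and 0.357 in Ery 6. All UMIs per cell had medians of 26146 and 25977 in Ery 1 and 4378 and 7882.5 in Ery 6. Without globin genes, Ery 1 to Ery 6 lay between 197 and 359 in both libraries, and EryP held 242 and 255. The one step beyond 1.5-fold between neighbouring subclusters on that scale was from Ery 5 to Ery 6, to 0.617 times (0.545 to 0.698) and 0.606 times (0.531 to 0.691).

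Rac2 stood at 1326 and 1206 CPM in G, 1213 and 1066 in Mo/KC and 853 and 826 in HSPC, and HSPC lay below both in each library. It was 201 and 199 CPM in Ery 1, 120 and 97.6 in Ery 3, and 12.6 and 9.19 in Ery 6. EC, a type that is not a blood cell, showed 15.3 and 21.2 CPM, from 4 and 12 UMIs in 3 of 20 and 4 of 26 cells at median depths of 13054.5 and 15744.5 UMIs, beside 72 of 1218 and 88 of 1176 cells in Ery 6 at 4378 and 7882.5 UMIs. By CPM, the Rac2 of Ery 5, Ery 6 and EryP was thus at the level of that background. On the globin-free scale EC held 15.7 and 21.6. Ery 5 stood above it there at 33.6 and 26.9, Ery 6 at 30.2 and 42.7 and EryP at 62.7 and 47.4. In Ery 6 free RNA at its largest share would give 81.8 UMIs, where 72 were found, and 77.6 where 91 were found, and in EryP it would give 9.75 of 14 and 6.18 of 8. Of all Rac1 and Rac2 UMIs, Rac2 made up 74.1% and 72.9% in HSPC, 41.1% and 41.0% in Ery, and 12.0% and 17.8% in Ery 6.

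The comparison of the 2 erythroid lineages asked how EryP cells differ from the definitive erythroblasts of the same liver. By CPM, 5 of the 6 members with at least 10 CPM were lower in EryP by 2-fold or more in both libraries, but so were 68.8% of the 3475 genes tested, and the median gene was at 0.315 times its Eryb level. Higher levels in EryP by the same rule were found for 1.58% of genes and for none of the members. On the globin-free scale 15.0% of genes were lower and 6.73% higher, the median gene was at 0.794 times, and Lmna alone among the members remained at least 2-fold lower in both libraries.

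Lmna in EryP was 0.172 times the Eryb CPM (0.128 to 0.226) in library 1 and 0.176 times (0.122 to 0.246) in library 2. Without globin genes it was 0.467 times (0.347 to 0.615) and 0.411 times (0.284 to 0.574), with 228 and 202 in EryP against 489 and 491 in Eryb. The 2 libraries thus gave nearly the same ratio on each scale. Lmnb1 was 0.226 and 0.188 times by CPM, and 0.613 (0.368 to 0.959) and 0.439 (0.200 to 0.836) times without globin genes, so only library 2 passed 2-fold on the second scale. Rac2 was 0.264 and 0.220 times by CPM and 0.717 and 0.513 times without globin genes, with intervals that reached 1.21 and 1.01.

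Hdac2 and Rac1 were lower in EryP by CPM and not distinguishable from Eryb on the globin-free scale. Hdac2 was 0.350 times (0.207 to 0.555) and 0.352 times (0.168 to 0.649) by CPM, and 0.950 times (0.561 to 1.51) and 0.821 times (0.393 to 1.52) without globin genes. Rac1 was 0.347 and 0.440 times by CPM, and 0.942 times (0.706 to 1.23) and 1.03 times (0.742 to 1.39) without globin genes. Free RNA at its largest share would give 34.1% and 31.4% of the Hdac2 UMIs in EryP, against 14.0% and 13.2% in Eryb. For Rac1 it would give 32.9% and 15.4% in EryP, against 13.3% and 8.07% in Eryb. These ratios were not corrected for it. Xpo7 changed direction with the scale. It was 0.522 times (0.421 to 0.640) and 0.665 times (0.519 to 0.839) the Eryb level by CPM, and 1.42 times (1.14 to 1.74) and 1.55 times (1.21 to 1.96) without globin genes. Without the EryP cells that held no more embryonic than adult globin, the ratio without globin genes was 1.29 (1.03 to 1.61) in library 1 and 1.05 (0.744 to 1.45) in library 2, so the higher level in library 2 rested on 11 cells. The Xpo7 of Eryb came almost wholly from Ery 6, which gave 3935 of its 4560 UMIs in library 1 and 3476 of 3982 in library 2.

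**Figure D5:**
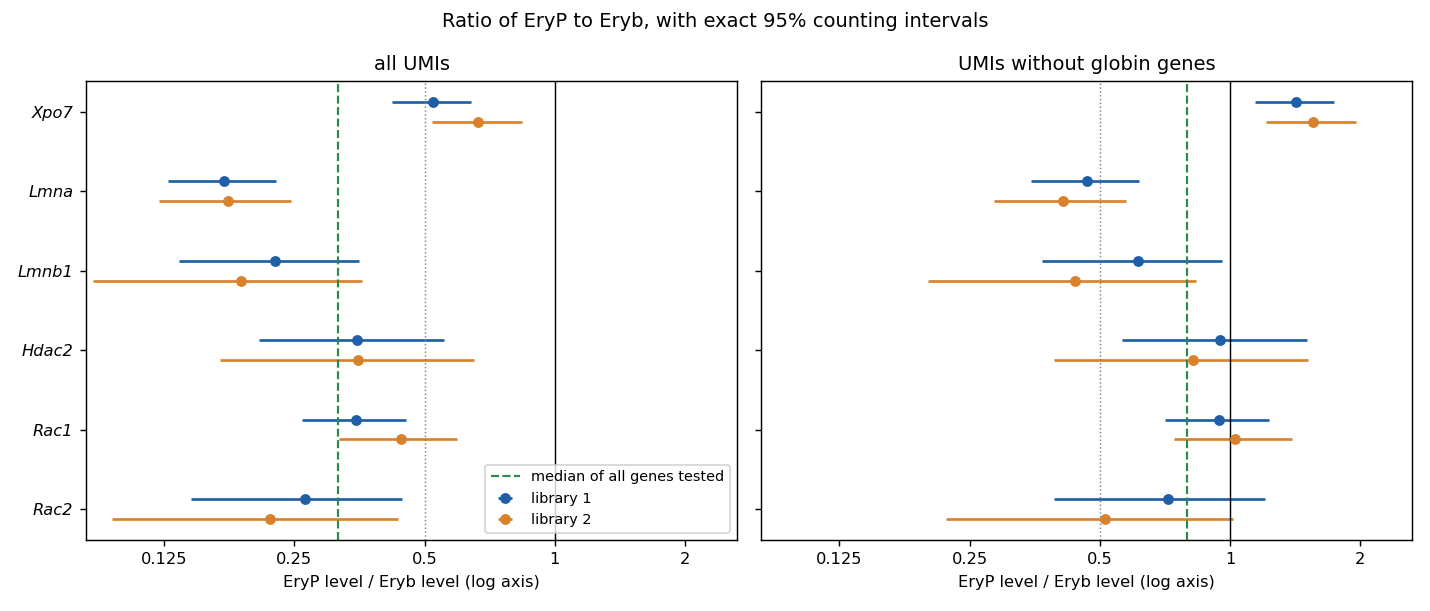
Level in EryP divided by that in Eryb for 6 genes (log axis), with exact 95% counting intervals, by all UMIs on the left and by UMIs without globin genes on the right, with 1 color for each library. The dashed line is the median of the 3475 genes tested (0.315 and 0.794), the dotted line marks 0.5 and the solid line equal levels, and Lmna lies left of the dotted line on both sides.

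Cells were also counted by whether they held a UMI, after each was thinned to 3600 UMIs so that depth could not set the share. The cells left out as shallower were 29 of 170 EryP cells and 455 of 3820 Eryb cells in library 1, and none in library 2. The share with an Xpo7 UMI was 71.9% and 56.7% in Ery 6, 27.4% and 22.0% in Eryb, 26.2% (19.1 to 34.2) and 15.9% (9.83 to 23.8) in EryP, and 4.34% and 4.15% in Ery. Without thinning the Xpo7 shares were 75.4% and 71.8% in Ery 6, 34.1% and 31.1% in Eryb, and 35.3% and 28.8% in EryP. The share with an Lmna UMI was 59.9% and 45.8% in Eryb against 15.2% and 10.2% in EryP, and it was 3.69% and 5.69% in G, where Lmna was at background. The intervals of Eryb and EryP did not overlap for Lmna, whereas those for Xpo7 did. All 7 shares were lower in EryP than in Eryb in both libraries, although Lmnb2 had a UMI in only 0 and 1 EryP cells. Of the 3475 genes tested, 91.6% had a lower share in EryP in both libraries. After thinning to 1000 UMIs of genes other than globins this was so for 3 members and for 51.5% of genes. That thinning kept 105 of 170 and 69 of 118 EryP cells.

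The comparison of erythroblasts with their progenitors asked which of the genes change as definitive erythroid cells mature. Of 5510 genes, 5.06% were at least 2-fold higher and 50.5% lower in Eryb than in Ery in both libraries by CPM, and 14.3% and 25.6% on the globin-free scale. Xpo7 was higher, 16.1-fold (14.0 to 18.5) and 11.2-fold (9.61 to 13.02) by CPM and 24.8-fold and 26.0-fold without globin genes. Per cell it went from 0.239 and 0.221 UMIs in Ery to 1.19 and 1.10 in Eryb, a ratio of 4.99 (4.36 to 5.73) and 4.98 (4.29 to 5.81). Since much of the Xpo7 count of Ery could be free RNA, its mean log2 difference of 3.74 by CPM became 4.39 when free RNA was subtracted at 5% of UMIs. It was 5.79 at 10%, a setting above the largest share that markers allowed in Ery, 6.06% and 6.93%. Lmnb2, Hdac2 and Rac2 were lower by CPM, Lmnb2 to 0.115 and 0.0957 times, Hdac2 to 0.294 and 0.199 times and Rac2 to 0.307 and 0.220 times. Without globin genes, Lmna joined the genes that were higher, at 2.45 and 2.57 times, and Rac2, at 0.474 and 0.514 times, no longer passed in library 2. Per cell Lmna was lower in Eryb, at 1.97 UMIs in both libraries against 3.99 and 4.01 in Ery. Lmnb1 and Rac1 were close to equal levels on the globin-free scale, Lmnb1 at 0.986 and 0.919 times and Rac1 at 0.970 and 0.961 times. Both were below 1 by CPM and without globin genes. In UMIs per cell they were lower still, Lmnb1 at 0.198 and 0.176 times and Rac1 at 0.195 and 0.184 times. From Ery 3 to Ery 6, 4 of 6 members were lower by CPM, Lmnb1, Hdac2, Rac1 and Rac2, against 69.2% of all genes. Without globin genes these were Hdac2 and Rac2, against 36.7%. With a mean of 9.77 CPM in Ery 6, Hdac2 passed the minimum only through Ery 3, which again favours a call of lower.

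Genes that work with the members were counted by the same rule in EryP against Eryb. The minimum of 10 CPM is a mean over both groups. A gene below it in EryP passed only through Eryb, which favours a call of lower. Of the genes named here and in the following paragraphs as lower, this holds for Emd, Sun1, Tor1a, Xpo1, Mta2, Mbd3 and Diaph3. The shares of all genes were taken with the same filter. Of 11 lamin partners 5 passed 10 CPM, and 5 of 5 were lower by CPM and 1 of 5 on the globin-free scale, beside 68.8% and 15.0% of all genes. Lbr, the lamin B receptor, was at 49.1 and 41.4 CPM in EryP against 389 and 238 in Eryb, and it was the one that stayed lower without globin genes. Tmpo, which encodes lamina-associated polypeptides, was at 38.6 and 49.7 CPM against 366 and 215. Banf1, a chromatin-binding barrier factor, and Emd, emerin, were at mean log2 differences of -2.16 and -2.23 by CPM, Emd from 5 and 8 UMIs in EryP. Lbr was also the 1 lamin partner of 8 that was higher in Eryb than in Ery by CPM, beside 5.06% of all genes, at 389 and 238 against 120 and 116. Of these 8 partners 5 were lower in Eryb than in Ery, Banf1 and Emd among them, beside 50.5% of all genes. Of the genes linking the nucleus to the cytoskeleton, 3 of 8 passed 10 CPM in EryP against Eryb. By CPM 2 of these were lower, Sun1, of the inner nuclear membrane (6 and 4 UMIs in EryP), and Tor1a, torsin A (5 and 3 UMIs). None was lower without globin genes. The third, Tor1aip1, a partner of torsin, had a mean log2 difference of -0.52 by CPM and 0.81 without globin genes.

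Of the exportins and Ran pathway genes, 6 of 12 passed and 5 were lower by CPM and 1 on the globin-free scale, beside 68.8% and 15.0% of all genes. Xpo1, the general exportin, was at 10.4 and 6.21 CPM in EryP (10 and 6 UMIs) against 53.2 and 31.4 in Eryb. Its mean log2 difference was -2.25 where Xpo7 had -0.76. Ranbp1, a cofactor of Ran, was the one lower on both scales, at 86.6 and 48.7 against 482 and 293 CPM. Rangap1, the GTPase activator of Ran, and Ranbp3, an export cofactor, were at mean log2 differences of -2.05 and -1.32 by CPM. Of the class I deacetylases and their complexes, 8 of 14 passed and 7 were lower by CPM, beside 68.8% of all genes. On the globin-free scale 1 was lower, the histone-binding protein gene Rbbp7, beside 15.0% of all genes. Mta2, of the NuRD complex, was at 3.13 and 4.14 CPM in EryP (3 and 4 UMIs) against 37.0 and 21.1. Mbd3 was at 8.35 and 6.21 (8 and 6 UMIs) against 27.4 and 17.1. Sap30, of the Sin3 complex, was at 13.6 and 3.11 (13 and 3 UMIs) against 19.1 and 10.9. These EryP levels rest on few UMIs.

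Of 17 other genes with a part in enucleation, 10 passed and 7 were lower by CPM, beside 68.8% of all genes. On the globin-free scale 1 was lower, the formin gene Diaph3, beside 15.0% of all genes. Diaph3 was at 9.39 and 4.14 CPM in EryP (9 and 4 UMIs) against 74.9 and 47.9 in Eryb. Setd8, a histone methyltransferase gene, was at 11.5 and 12.4 against 84.5 and 51.6 CPM. Riok3, a kinase gene, and Plek2, a pleckstrin gene, were nearest to equal, at mean log2 differences of -0.32 and -0.46 by CPM and 1.01 and 0.87 without globin genes, so their direction changed with the scale as that of Xpo7 did. In Eryb against Ery, 6 of 15 genes of that list were higher by CPM and 9 of 15 without globin genes, beside 5.06% and 14.3% of all genes. Of the 15, 3 were lower by CPM and 1 without globin genes, beside 50.5% and 25.6%. The median log2 difference of the list was 1.05 and 1.97, beside -1.30 and -0.37 over all genes. The list was chosen with earlier results of these data known, so these values are a description. All 12 proliferation genes were lower in EryP by CPM and 9 of 12 without globin genes, beside 68.8% and 15.0% of all genes. The topoisomerase gene Top2a was at 25.0 and 34.2 CPM against 417 and 297. Aurka, a mitotic kinase gene, was at 8.35 and 14.5 CPM (8 and 14 UMIs) against 173 and 110. Mki67, a marker of cycling cells, and the cyclin gene Ccnb2 were at mean log2 differences of -2.65 and -2.37 by CPM.

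The genes whose levels most resembled each member were sought over 26 points, the 13 cell groups in each library, among 4516 genes with a mean of at least 20 CPM. The points share libraries, and globin content moves all of them, so the correlations are a description. Xpo7 was nearest to Ubap1 (Pearson r = 0.90), Tbcel (0.89) and Tcp11l2 (0.89). Ubap1 was at 15.0 and 13.7 CPM in Ery 1, 157 and 91.8 in Ery 6 and 47.0 and 45.6 in EryP, so it too was highest in the last subcluster. Lmna was nearest to Gata1 (0.95), Smim1 (0.94) and Epor (0.92), of which Gata1 encodes the main erythroid and megakaryocytic GATA factor and Epor the erythropoietin receptor. Gata1 was at 244 and 140 CPM in Ery 5, 133 and 63.9 in Ery 6 and 40.7 and 33.1 in EryP. Lmnb1 was nearest to Cep83 (0.95), Cks1b (0.95) and Calm3 (0.94), and Lmnb2 to Ube2e1 (0.99), Nudt16l1 (0.98) and Ppp1r11 (0.98). Hdac2 was nearest to Top2b (0.99), Fubp1 (0.99) and G3bp1 (0.99), Rac1 to Myl12a (0.97), Gnb2 (0.97) and Vasp (0.97), and Rac2 to Cd44 (0.96), Arhgap9 (0.95) and Sh3bp1 (0.94).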

How the data were processed

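Cells of 1 liver were measured in 2 libraries, as technical replicates. For both libraries the authors deposited whole-number counts of UMIs per gene and barcode, made with Cell Ranger 2.1.1 on mm10, and a table of kept cells with their clusters from Seurat 3.2.0. The matrix header of library 1 names software version 3.0.0. The cell table was used as deposited, with cluster 15 read as EryP and its spelling HPSC as HSPC. The suspension had been sorted to remove doublets before the libraries were made. No doublet caller was run here, so doublets among the kept cells were not tested.

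UMIs were summed over the cells of each group in each library and set relative to 1000000 UMIs of the same cells (CPM) or to those of genes other than the 8 globin genes. CPM have exact Poisson intervals, ratios exact conditional binomial intervals and shares exact Clopper-Pearson intervals, all at 95% and for counting error only. Where a count was 0, a share was limited by 3 counts. Fold changes on the log2 scale used a prior of 0.5 counts. A gene counted as higher or lower when it differed at least 2-fold in the same direction in both libraries, among genes with a mean of at least 10 CPM over both groups. With 1 liver, no test of a difference was possible, and the libraries show technical spread only. For shares, cells were thinned to 3600 UMIs.

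The 7 genes and the 7 lists of related genes were chosen with earlier results of these data known. The result of 1 of these lists is not reported here. Apart from the members, the text names, from each list, the 2 genes with the highest and the 2 with the lowest log2 ratio of EryP to Eryb, and for each member the 3 genes with the highest Pearson correlation of log2(CPM + 1). Further genes are named as markers or as genes that overlap a member. The comparisons of EryP with single subclusters and of Ery 6 with Ery 5, the free RNA shares and the split of EryP by globin kind were added after seeing the data. The intervals, the thinning and the calls were tested on simulated data. The simulated counts followed the distributions that the intervals assume, with no added spread between libraries. Changed genes differed by more than 2-fold and lay above the minimum of 10 CPM, so calls near these limits were not tried. The tools were scipy 1.17.1, pandas 2.3.3 and numpy 2.4.6 under Python 3.11.15, and figures were drawn with matplotlib 3.10.9.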

Additional observations from a re-analysis of the deposited data

Results flagged for a closer look

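Some barcodes outside the authors' cell table carried RNA of the genes, and these were not part of any comparison. Barcodes with at least 1000 UMIs and 200 genes that the table does not list numbered 168 in library 1 and 3311 in library 2. In library 1 they held 159 CPM of Xpo7 and 306 CPM of Lmna. Their Lmnb1 stood at 60.6 CPM and their Hdac2 at 35.4 CPM, and Rac1 and Rac2 were at 169 and 45.5 CPM. A count of 0 would have allowed up to 7.58 CPM there, and Lmnb2 was not above that limit. In library 2 the limit was 0.445 CPM, and all 7 genes were above it. Xpo7 was at 56.2 CPM, Lmna at 156 CPM, Lmnb1 at 91.3 CPM and Lmnb2 at 8.46 CPM. Hdac2 was at 76.9 CPM, Rac1 at 171 CPM and Rac2 at 172 CPM. These values were listed because the signal lay outside the kept cells, and what these barcodes hold was not tested.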

How the results depend on the processing

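No paired analysis was possible because no test was run, and each ratio was already taken within a library. In EryP against Eryb, where 68.8% of genes were lower by the 2-fold rule in both libraries, 5 of the 6 members tested were lower in either library alone. This count became 1 on the globin-free scale and 3 at 3-fold. It was 2 among genes with a mean of at least 50 CPM. Lmnb1, Hdac2 and Rac2 did not pass that filter, with means of 41.6, 28.1 and 29.0 CPM. Counts over all genes are given below with the number tested, except for lower genes in single libraries and at 1.5-fold. The count of lower members was 1 in cells with at least 75% globin UMIs. There the log2 ratio of Hdac2 was 0.62 and that of Rac1 0.10, above 0. The count was also 1 in EryP cells with more embryonic than adult globin UMIs on the globin-free scale. In Eryb against Ery, the 3 lower members of 7 became 6 by mean UMIs per cell and 5 at 1.5-fold. They were 3 to 5 in single libraries, 5 in library 2 alone. By the 2-fold rule in both libraries 50.5% of genes were lower there, so these counts are not a result about the members. The 1 higher member became 2 on the globin-free scale. In Ery 6 against Ery 3, the 4 lower members became 2 on the globin-free scale. The 7 members with a lower share of cells in EryP became 3 after thinning to 1000 UMIs of genes other than globins. Apart from members that a filter left out, the cause of these moves was not tested. The settings by globin share or globin kind of the cells, the thinning on such UMIs and the ratios per cell in each library were chosen after seeing the data.

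Among all 3475 genes tested in EryP against Eryb, 55 higher and 2391 lower genes became 234 and 522 on the globin-free scale. They were 118 and 208 of 1887 in cells with at least 75% globin UMIs and 15 and 771 of 1084 at 50 CPM. In embryonic-globin EryP cells without globin genes they were 263 and 635 of 3453. At least 5 CPM gave 91 higher genes of 4936, and 3-fold gave 1447 lower genes of 3475. No filter gave 4363 of each among 14324, which rests on the prior count. In Eryb against Ery, 279 and 2783 of 5510 genes became 790 and 1412 on the globin-free scale and 75 and 4861 by UMIs per cell. They were 132 and 1084 of 2171 at 50 CPM, 641 and 7218 of 15780 without a filter and 158 and 1602 of 5510 at 3-fold. Library 1 alone gave 472 higher genes. In Ery 6 against Ery 3, 143 and 3022 of 4368 genes became 633 and 1603 on the globin-free scale. They were 84 and 972 of 1560 at 50 CPM and 450 and 7147 of 13432 without a filter. There the higher genes were 264 in library 1 alone, 65 by UMIs per cell, 244 at 1.5-fold and 77 at 3-fold. Counts of 19 or fewer UMIs limit Lmnb1, Hdac2 and Rac2 in EryP.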
